A study of Mus musculus with 4 samples.

Results

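The genes of MHC class I antigen processing were followed across 4 populations of mouse CD4 T lineage cells. They are B2m, Tap1, Tap2, Tapbp, Nlrc5, H2-M3, Psmb8, Psmb9, Psmb10 and Erap1. They were chosen by name, and each is read by the brightest of its probe sets, by mean value. All 10 of the 10 named genes were measured, out of 22180 genes in the table, and all 10 passed the table's median value on all 4 arrays. Each population had 1 Affymetrix array of total RNA, and values are log2 RMA values.

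All mice were of C57BL/6 background and 8 weeks old. Cells labelled naive were splenic CD4+CD62Lhi T cells of wild-type mice. Classical Th1 cells (cTh1) were derived from such wild-type cells over 5 days with CD3/CD28 activator beads, 2 ng/ml IL-12, 50 U/ml IL-2 and anti-IL-4 antibody. TT naive (CD4+CD62L+CXCR3-) and natural Th1 cells (nTh1, CD4+CD62L+CXCR3+) were thymocytes of CIITAtg mice. CIITA is the coactivator that switches on MHC class II genes, and the labels do not name the promoter that drives the transgene. With 1 array per population there is no replicate error, so no test was run and no p-value is given. The spread that could be measured is the SD of a log2 difference between probe sets of the same gene. It ranged from 0.26 for nTh1 over TT naive to 0.48 for nTh1 over cTh1, and leaves out differences between animals, sorts and hybridisations.

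One array went against its label. Cxcr3, the chemokine receptor used for sorting the thymocytes, stood at 9.80 on the naive-labelled array, 7.76 in TT naive, 10.53 in cTh1 and 9.91 in nTh1 cells. Tbx21, which encodes T-bet, was at 9.81 on the naive-labelled array against 7.11 in TT naive and 7.92 in nTh1 cells. H2-Aa, a class II chain, was at 12.66 on that wild-type array and at 12.66 in transgenic nTh1 cells. Zbtb16, which encodes the innate-like T cell factor PLZF, was at 12.23 there and between 7.31 and 9.88 on the other arrays. It is therefore called the naive-labelled array here, and TT naive cells are used as a second baseline. Whether this array was exchanged with another cannot be told from the files, and an exchange would change which population its values, and those of the other array, belong to. Y-linked Eif2s3y was at 8.61 and 8.55 on the naive-labelled and TT naive arrays against 4.97 and 5.16 in cTh1 and nTh1. As labelled, the expression of this gene split nTh1 from TT naive cells and cTh1 from the naive-labelled array. The animals behind the arrays of each pair thus differed. Were the naive-labelled and nTh1 arrays exchanged, the same values would instead split the thymic from the wild-type populations. Cxcr3 and H2-Aa would still be high on the array then called naive, as nTh1 holds them at 9.91 and 12.66. An exchange was not tested. The T cell genes Cd4 and Cd3e lay between 12.33 and 13.11 on all 4 arrays.

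Nearly all nucleated cells show peptides from their own cytosol on MHC class I molecules. Proteasomes cut the peptides, the TAP transporter carries them into the endoplasmic reticulum, and chaperones and trimming enzymes fit them to the class I heavy chain and its partner, beta 2 microglobulin. Interferon gamma, the signature cytokine of Th1 cells, is known to induce much of this machinery, including replacement catalytic subunits that turn the standard proteasome into the immunoproteasome. NLRC5 is the class I counterpart of CIITA and acts through the same promoter-bound complex of RFX, CREB and NF-Y proteins.

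Differences within the group were modest, and the genes did not move together. Psmb9 and Psmb8 were highest in cTh1 and lowest in nTh1 cells, Nlrc5 was highest in nTh1 cells, and B2m, Psmb10 and Tapbp varied by 0.24 or less on the log2 scale. Only Nlrc5 and Psmb9, 2 of 10, had a range of 1 or more over the 4 arrays. The same was true of 17.9% of the 13238 genes that reached the table's median on any array, whose median range was 0.51. The naive-labelled array and cTh1 each held the highest value for 4 of the 10 genes, where 29.3% and 34.2% of all genes had theirs. The nTh1 array held the lowest for 5, against 34.5% of all genes, and these counts lie near the shares of all genes.

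**Figure D1:**
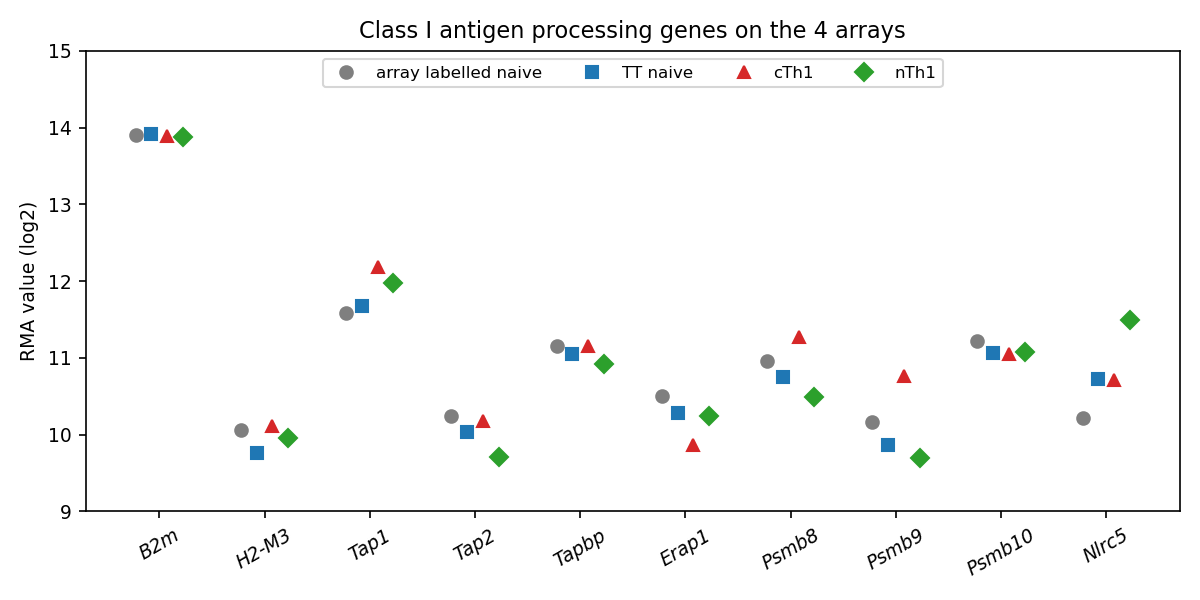
Log2 RMA value (vertical axis) of each class I antigen processing gene (horizontal axis) on the 4 arrays, 1 point per array, with no replicates. Nlrc5 spans 10.21 to 11.49 and Psmb9 9.70 to 10.77, while the 4 points of B2m lie between 13.88 and 13.92.

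Of the presented complex, B2m encodes beta 2 microglobulin, the light chain that every classical class I molecule needs. It stood at 13.90 on the naive-labelled array, 13.92 in TT naive, 13.89 in cTh1 and 13.88 in nTh1 cells. Its range of 0.04 was smaller than that of 99.9% of genes. The probe set also lay within 0.15 of the highest value on each array, and the part of that position in its small range was not tested. H2-M3, a non-classical heavy chain that presents N-formylated peptides, was at 10.06 on the naive-labelled array, 9.76 in TT naive, 10.12 in cTh1 and 9.96 in nTh1 cells. It was the only heavy chain in the group. Other heavy chains belong to a multigene family whose probe sets are uncertain. H2-K1, a classical heavy chain, ran from 12.90 on the naive-labelled array to 13.18 in cTh1 cells. H2-T23, the chain of Qa-1, ran from 11.28 to 11.49. Of the 24 listed heavy chains 14 were measured, and their median difference was -0.07 for nTh1 over TT naive. For cTh1 it was 0.05 over the naive-labelled array and -0.05 over TT naive cells, the latter turning to 0.06 with the arrays centred, so its direction was not settled. H2-M2 was the heavy chain that differed by 2-fold or more in the first of these and in cTh1 over the naive-labelled array, and no heavy chain did so in cTh1 over TT naive. It stood at 6.82, 5.82, 5.67 and 7.01 in the order naive label, TT naive, cTh1 and nTh1, close to the median of all values. Of all genes, 1.41% were higher by 2-fold in nTh1 over TT naive and 3.35% lower in cTh1 over the naive-labelled array. In cTh1 over TT naive 7.24% were higher and 3.02% lower.

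Tap1 and Tap2 encode the chains of the peptide transporter, and they differed in pattern. Tap1 was at 11.58 on the naive-labelled array, 11.67 in TT naive, 12.18 in cTh1 and 11.97 in nTh1 cells. Both Th1 populations thus lay above both populations labelled naive. Tap2 was at 10.24 on the naive-labelled array, 10.04 in TT naive, 10.18 in cTh1 and 9.71 in nTh1 cells. For nTh1 over TT naive, Tap1 was higher by 0.29 and Tap2 differed by -0.33, both beyond the probe set SD of 0.26. Differences at least as large as that of Tap1 were seen in 29.7% of genes, and as that of Tap2 in 25.2%. For cTh1 over TT naive, Tap1 was higher by 0.51 and Tap2 by 0.14.

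Tapbp encodes tapasin, which holds the empty class I molecule to the transporter. Its brightest probe set was at 11.16 on the naive-labelled array, 11.04 in TT naive, 11.15 in cTh1 and 10.91 in nTh1 cells. It was the only gene of the group with a further probe set of its own. That set read 8.05, 7.93, 7.59 and 7.51 in the same order, with a range of 0.54 against 0.24. The sets disagreed on cTh1 over TT naive, which was 0.11 by the brightest set and -0.12 by the mean of both. Erap1, the aminopeptidase that trims peptides inside the endoplasmic reticulum, was at 10.50 on the naive-labelled array, 10.28 in TT naive, 9.87 in cTh1 and 10.24 in nTh1 cells. It was the gene lowest in cTh1 cells by the widest margin, at -0.63 against the naive-labelled array and -0.42 against TT naive cells. The second value lies within the probe set SD of 0.44.

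The immunoproteasome genes split. Psmb9, which takes the place of Psmb6 in the catalytic chamber, was at 10.16 on the naive-labelled array, 9.86 in TT naive, 10.77 in cTh1 and 9.70 in nTh1 cells. The cTh1 value stands above the other 3, and the thymic populations hold the lowest values. For nTh1 over cTh1, Psmb9 differed by -1.07, a 2.10-fold difference. Differences of that size or more were seen in 10.3% of genes in that comparison.

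Psmb8, which takes the place of Psmb5, had the same order of arrays. It was at 10.96 on the naive-labelled array, 10.75 in TT naive, 11.27 in cTh1 and 10.48 in nTh1 cells. Its nTh1 over cTh1 difference was -0.79. Psmb10, which takes the place of Psmb7, did not share this order, with 11.22, 11.06, 11.05 and 11.07 on the same arrays. Its range of 0.18 was smaller than that of 92.8% of genes.

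The constitutive subunits of the same active sites were read beside them, from RNA only. Psmb5 was at 12.24 on the naive-labelled array, 12.23 in TT naive, 11.98 in cTh1 and 12.07 in nTh1 cells, and Psmb7 was also lowest in cTh1 cells, at 9.76. Psmb6 was at 10.20, 9.80, 9.94 and 9.93 in the order naive label, TT naive, cTh1 and nTh1. For cTh1 over the naive-labelled array, the inducible subunits differed by a mean of 0.25 and the constitutive ones by -0.29. The shift between them was 0.53, and it was 0.60 with TT naive cells as the baseline. Each constitutive difference over the naive-labelled array lay within the probe set SD of 0.40. The outer ring (alpha) genes, described below, had a median of -0.42 in that comparison, so a lower value was not particular to the catalytic subunits. For nTh1 over TT naive the same shift was -0.10, and for nTh1 over cTh1 it was -0.70, of which Psmb9 against Psmb6 gave -1.06 and Psmb10 against Psmb7 -0.17. Each shift is a difference of differences, so levels of different probe sets were not compared.

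**Figure D2:**
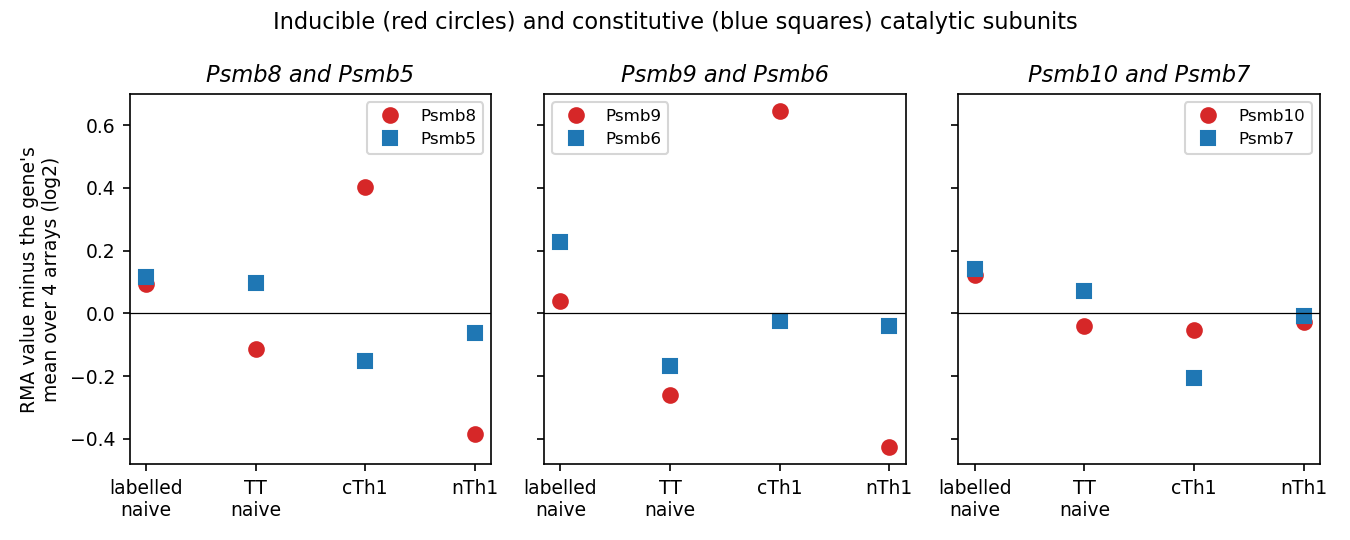
Log2 RMA value of each catalytic subunit minus its own mean over the 4 arrays (vertical axis), by array (horizontal axis), for the inducible (red circles) and constitutive (blue squares) subunit of each active site. In cTh1 cells Psmb8 and Psmb9 lie above 0 while Psmb5 and Psmb7 lie below it, and in nTh1 cells Psmb8 and Psmb9 are at their lowest.

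Other proteasome genes differed by less than 2-fold in cTh1 cells, against either baseline. In cTh1 over the naive-labelled array, 0 of the 5 detected outer ring (alpha) genes reached 2-fold, where 5.13% of all genes were higher and 3.35% lower. The median over the 6 measured was -0.42, or -0.18 against TT naive cells. The 4 non-catalytic beta genes had a median of 0.03 and 0.17 against these baselines. Psme1 and Psme2 encode the interferon-inducible PA28 cap. Psme1 was at 10.92 on the naive-labelled array, 10.69 in TT naive, 10.94 in cTh1 and 10.50 in nTh1 cells. Psme2 was lowest in nTh1 cells at 8.49 and stood between 9.05 and 9.30 on the other arrays. Of these proteasome genes Psmb1 was the only one to reach 2-fold for nTh1 over cTh1, at -1.12, where 8.3% of all genes were lower by 2-fold. Its direction is that of Psmb9. Psmb11, the catalytic subunit of the thymic cortical epithelium, stayed below the median of all values on all 4 arrays, at 6.04 to 6.54.

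Nlrc5, the transactivator of class I genes, was at 10.21 on the naive-labelled array, 10.72 in TT naive, 10.72 in cTh1 and 11.49 in nTh1 cells. The nTh1 value was the highest, TT naive and cTh1 were level, and the naive-labelled array was lowest. Nlrc5 was higher in nTh1 cells by 0.77 than in TT naive, by 0.77 than in cTh1 and by 1.28 than on the naive-labelled array. The first of these was matched or exceeded by 4.74% of genes in its comparison, the second by 18.5% and the last by 3.19%. For cTh1 its difference was 0.51 against the naive-labelled array and -0.01 against TT naive cells, so any direction in cTh1 rests on the array that went against its label. B2m, Tap1 and Psmb9, genes that NLRC5 is known to act on, did not share its order over all 4 arrays. Tap1 departed from it only in cTh1 cells, and the range of B2m was 0.04. The part of NLRC5 in these values was not tested. In nTh1 cells B2m, Tap1 and Psmb9 were at 13.88, 11.97 and 9.70, and none of them had its highest value there. Among the 14 measured heavy chains outside the group, 4 had their highest value in nTh1 cells. So did 20.5% of the genes that reached the table's median on any array, and with 14 chains the count lies near that share. The 4 chains were H2-Q4 at 11.94, H2-Q10 at 11.58, H2-M5 at 7.27 and H2-M2 at 7.01. Of these, H2-Q4, H2-Q10 and H2-M5 were named after their values were seen, and their probe sets are uncertain.

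The partners of NLRC5 on MHC promoters and Ciita itself, 8 genes in all, differed by less than 2-fold in all 6 comparisons. Of all genes, 0.795% to 8.3% differed by 2-fold in a given comparison and direction, so with 8 genes this lies near those shares. Rfx5, the DNA-binding RFX subunit, was at 9.74 on the naive-labelled array, 9.74 in TT naive, 9.37 in cTh1 and 9.97 in nTh1 cells. Ciita was highest in cTh1 cells at 8.00, against 7.28 in TT naive, and whether its probe set reads the transgene is not known. Irf1, an activator of class I and immunoproteasome promoters, was at 10.07 on the naive-labelled array, 10.21 in TT naive and 10.85 in cTh1 cells, and nTh1 cells lay 0.04 above the first of these. Like Psmb9 it was highest in cTh1, while nTh1 was level with both baselines. Irf8, a factor of the same family that myeloid and B cells also make, was higher in cTh1 by 2.44 and 3.02 against these baselines.

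Counted at 2-fold, the group had few differences. For nTh1 over TT naive, 0 of 10 genes reached 2-fold, where 1.41% of the 12435 genes with a value at or above the table's median of 6.61 were higher and 1.09% lower. For cTh1 over the naive-labelled array it was again 0 of 10, against 5.13% of genes higher and 3.35% lower. With TT naive as the baseline of cTh1 it was 0 of 10, against 7.24% higher and 3.02% lower. For nTh1 over cTh1, Psmb9 was lower and no gene higher, against 8.3% of genes lower and 3.46% higher. For nTh1 over the naive-labelled array, Nlrc5 was higher and no gene lower, against 1.93% and 4.43%. For TT naive over the naive-labelled array, 0 of 10 differed by 2-fold, against 0.795% higher and 2.59% lower. With 10 genes these counts lie near the background shares.

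The medians of the group were also small. The median difference of the group was -0.04 for nTh1 over TT naive, where all genes counted had -0.05. It was 0.02 for cTh1 over the naive-labelled array, against -0.02 for all genes, and 0.12 against 0.03 with TT naive as the baseline. For nTh1 over cTh1 it was -0.19 against -0.08. Over the naive-labelled array it was -0.18 for TT naive, against -0.06 for all genes, with 7 of 10 below 0. For nTh1 over that array it was -0.20, against -0.10 for all genes, with 8 of 10 below 0. Differences beyond the probe set SD were seen for 4 of 10 genes in nTh1 over TT naive and for 3 of 10 in nTh1 over cTh1, where 35.3% and 35.1% of all genes had one.

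**Figure D3:**
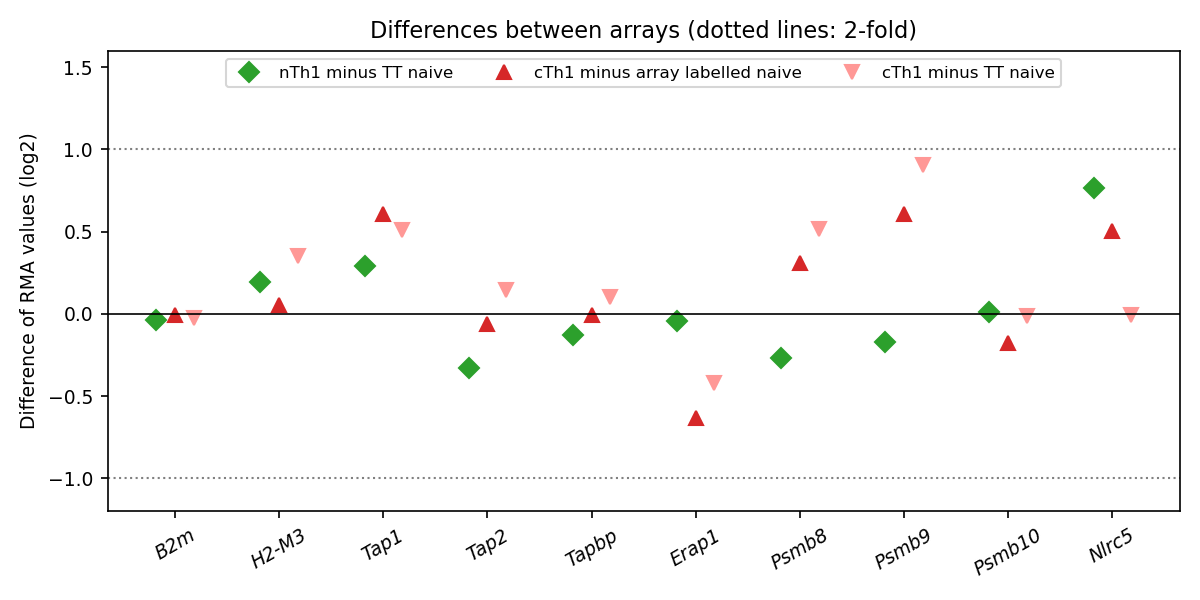
Difference of log2 RMA values (vertical axis) for each gene in nTh1 minus TT naive, cTh1 minus the naive-labelled array and cTh1 minus TT naive, 1 value each, with dotted lines at 2-fold. The largest is Psmb9 in cTh1 minus TT naive at 0.90, and Nlrc5 is at 0.77 in nTh1 minus TT naive.

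Psmb9, Tap1, Psmb8 and Tap2 lie next to each other on chromosome 17, between class II genes. RefSeq promoter windows of GRCm38.p6, 250 bases before to 50 after a gene's start, were found for 8 of the 10 genes; Tap2 and Nlrc5 were not among them. Those of Tap1 and Psmb9 overlap on opposite strands over 275 bases, and their start sites lie 226 bases apart. That shared window and the neighbouring one of Psmb8 are shown because these 3 genes were highest in cTh1 cells. B2m and Erap1 are shown beside them because the first was level and the second lowest in cTh1. Each is printed from 5′ to 3′ on the gene's strand, with matches to the motifs named after them in capitals.
Tap1 (chr17:34187306-34187605, plus strand): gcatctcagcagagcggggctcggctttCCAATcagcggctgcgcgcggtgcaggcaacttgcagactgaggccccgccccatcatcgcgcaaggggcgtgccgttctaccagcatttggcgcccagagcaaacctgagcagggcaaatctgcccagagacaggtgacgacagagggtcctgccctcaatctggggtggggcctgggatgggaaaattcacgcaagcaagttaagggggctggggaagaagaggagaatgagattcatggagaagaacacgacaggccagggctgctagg
Psmb8 (chr17:34197945-34198244, plus strand): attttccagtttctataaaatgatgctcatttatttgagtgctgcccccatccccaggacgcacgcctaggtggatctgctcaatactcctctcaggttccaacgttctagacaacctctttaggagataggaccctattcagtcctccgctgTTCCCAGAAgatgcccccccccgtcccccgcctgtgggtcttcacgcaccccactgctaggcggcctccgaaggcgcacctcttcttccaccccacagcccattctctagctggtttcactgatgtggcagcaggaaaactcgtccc
B2m (chr2:122147437-122147736, plus strand): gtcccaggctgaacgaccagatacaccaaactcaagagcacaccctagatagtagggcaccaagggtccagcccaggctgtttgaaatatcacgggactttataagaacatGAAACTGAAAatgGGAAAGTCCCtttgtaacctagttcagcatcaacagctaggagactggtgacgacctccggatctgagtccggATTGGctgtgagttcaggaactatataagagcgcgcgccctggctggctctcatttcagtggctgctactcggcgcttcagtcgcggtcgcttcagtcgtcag
Erap1 (chr13:74639603-74639902, plus strand): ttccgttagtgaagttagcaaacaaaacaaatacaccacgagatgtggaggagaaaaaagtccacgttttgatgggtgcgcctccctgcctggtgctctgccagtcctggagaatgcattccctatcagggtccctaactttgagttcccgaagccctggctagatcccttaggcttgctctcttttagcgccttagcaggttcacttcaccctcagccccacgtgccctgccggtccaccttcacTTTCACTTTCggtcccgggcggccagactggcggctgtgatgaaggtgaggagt

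5 motifs were searched on both strands, and no matches overlapped each other. GAAA, any 2 bases and GAAA stand for the interferon-stimulated response element, TTCNNNGAA for the gamma-activated site, CCAAT for the NF-Y box, TGACGTCA for the cyclic AMP response element and GGG, any 2 bases and TTTCC for a kappa B site. The first was found in 2 of the 8 windows, those of B2m and Erap1, and in 3.44% of all 32851 promoter windows. The gamma-activated site was found in 2, those of H2-M3 and Psmb8, and in 8.30% of all windows. The CCAAT box was found in 5 and in 37.4% of all windows, and the single match in Tap1 is the same site as the match in Psmb9, on the opposite strand. B2m alone held the kappa B match, found in 1.63% of windows, and TGACGTCA was found in 0 of 8 and in 1.79% of all. Erap1, lowest in cTh1, and B2m, level on all arrays, both held the interferon element, while the shared Tap1 and Psmb9 window held no match to these letters. Only these exact patterns were searched, so variant sites would be missed. The part of any of these sites in the values was not tested.

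The neighbouring class II genes went the other way from Psmb9, Tap1 and Psmb8 in cTh1 cells. Within the stretch from H2-DMa to H2-Eb2, all 8 class II genes were lower in cTh1 than on the naive-labelled array, by -0.77 for H2-DMa to -4.21 for H2-Eb2. The 3 genes between them were higher, Psmb9 by 0.61, Tap1 by 0.61 and Psmb8 by 0.31, and Tap2 differed by -0.06. With TT naive as the baseline the 8 class II genes were again lower, least for H2-DMb2 at -0.16 and most for H2-Eb2, at 8.18 against 11.19. Both comparisons share the cTh1 array. TT naive cells carry the CIITA transgene and cTh1 cells do not, so genotype, tissue and culture cannot be told apart here. The naive-labelled array had H2-Aa at the level of transgenic nTh1 cells. Psmb9, Tap1, Psmb8 and Tap2 were higher in cTh1 than in TT naive cells, by 0.90, 0.51, 0.52 and 0.14. In nTh1 over TT naive all 8 class II genes of the stretch were higher, by 0.09 to 0.70, while Psmb9, Psmb8 and Tap2 differed by -0.17, -0.27 and -0.33. Tap1, at 0.29, was the exception. H2-Oa, a class II gene outside the stretch, was highest in cTh1 at 10.83, against 10.30 on the naive-labelled array and 9.07 in TT naive cells.

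**Figure D4:**
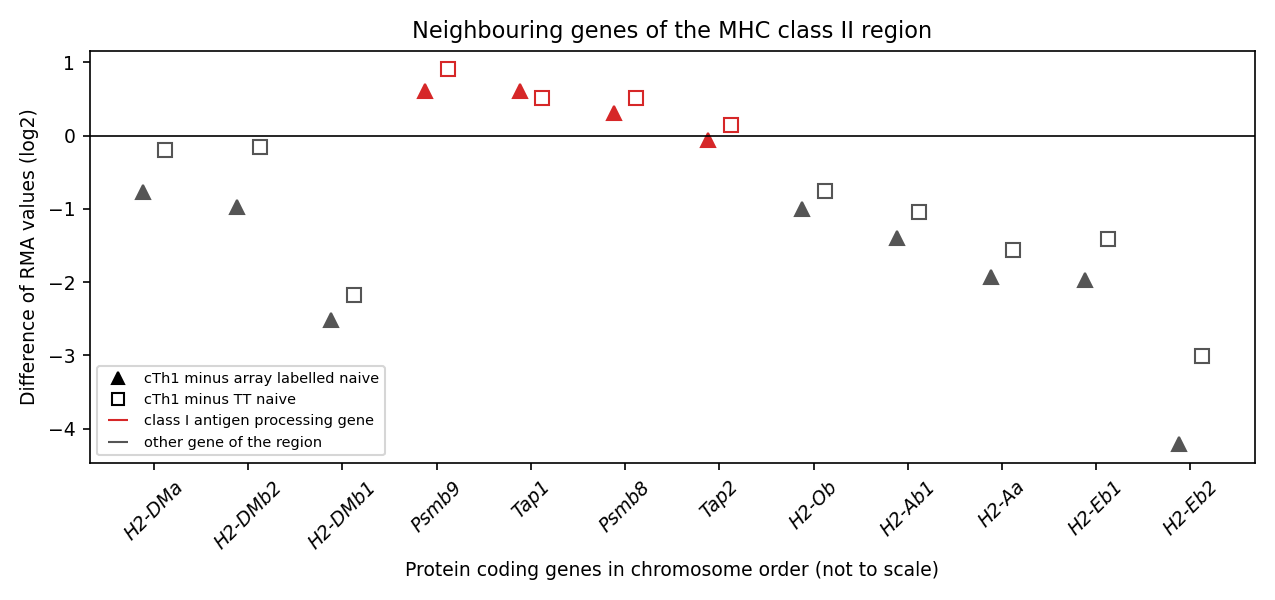
Difference of log2 RMA values (vertical axis) for 12 neighbouring protein coding genes in chromosome order (horizontal axis, not to scale), for cTh1 minus the naive-labelled array (filled triangles) and cTh1 minus TT naive (open squares). Psmb9, Tap1 and Psmb8 (red) lie above 0 in both, and the 8 class II genes (grey) lie below 0 in both.

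Interferon genes outside the group also split in cTh1 cells. Ifng itself was at 8.80 on the naive-labelled array, 5.88 in TT naive, 11.19 in cTh1 and 7.34 in nTh1 cells. Among 17 detected interferon-induced genes, cTh1 exceeded the naive-labelled array by 2-fold or more for 4 and was below it by as much for 7. Of all genes, 5.13% were higher and 3.35% lower by as much. At any size of difference, 9 of the 18 measured lay above 0 and 9 below. The 4 were Gbp3, Igtp, Irgm2 and Iigp1, GTPases of cell-autonomous defence, with Irgm2 at 1.81. The 7 were Irf7, Isg15, Ifit1, Oas2, Oasl1, Rsad2 and Bst2, antiviral genes best known from type I interferon, with Oas2 at -3.93.

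With TT naive as the baseline, 5 were higher, Gbp7 being added, and 6 lower, without Bst2, against 7.24% and 3.02% of all genes. For nTh1 over TT naive, 0 of 17 differed by 2-fold, against 1.41% of all genes higher and 1.09% lower. In that comparison Ifng was higher by 1.46 and the receptor chain Ifngr1 by 1.32. Socs1, the feedback inhibitor of that signal, was higher in cTh1 by 1.38 and 1.19 against these baselines and differed by 0.04 for nTh1 over TT naive. Psmb9, Psmb8, Tap1 and Irf1 were higher in cTh1 cells, like the GTPases counted here. Psmb10, at -0.18 and -0.01 against these baselines, and Psme2, at 9.05 against 9.30 and 9.13, were not. Erap1 was lower, like the antiviral genes counted here, but within the probe set SD of 0.44 against TT naive cells. The counted genes were picked by their differences on these same arrays, and a split by type of interferon was not tested.

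**Figure D5:**
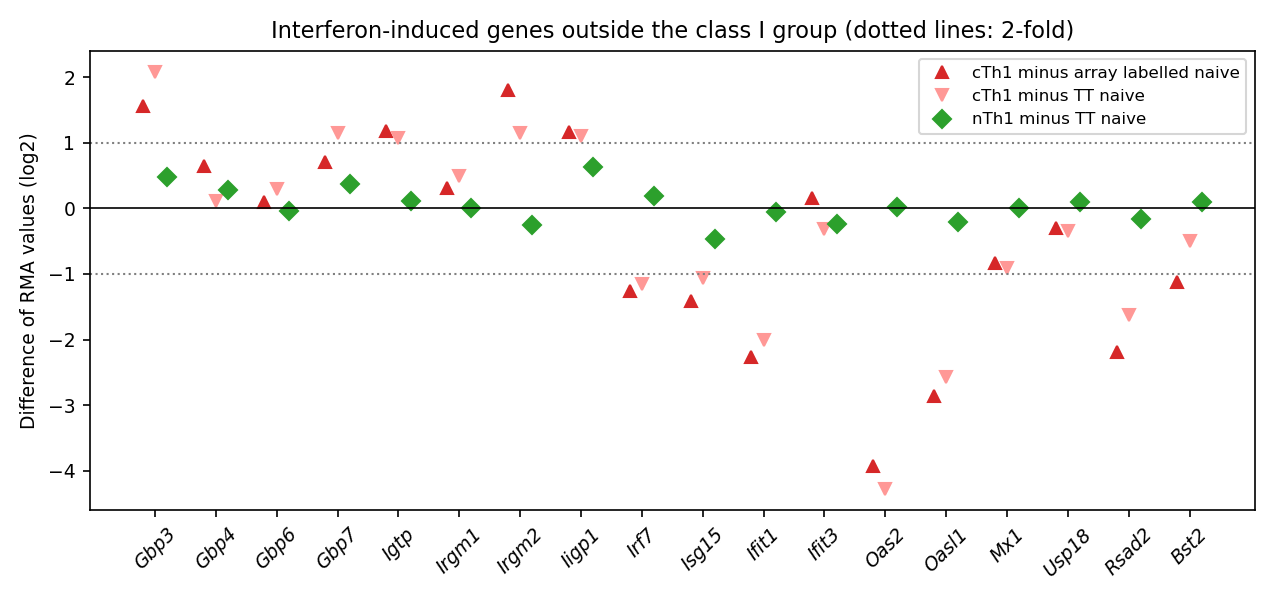
Difference of log2 RMA values (vertical axis) for 18 measured interferon-induced genes outside the class I group, in cTh1 minus the naive-labelled array, cTh1 minus TT naive and nTh1 minus TT naive, with dotted lines at 2-fold. Gbp3 reaches 2.09 and Oas2 -4.28 in cTh1 minus TT naive, and the nTh1 values all lie within 2-fold.

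Chaperones that fold class I molecules were mostly lower in cTh1 than on the naive-labelled array. For cTh1 over the naive-labelled array 6 of 8 were below 0, with a median of -0.34. Hspa5, the general chaperone BiP, was the only one to reach 2-fold, at -1.54, and at -1.39 against TT naive cells. Of all genes, 3.35% and 3.02% were lower by 2-fold in these comparisons. Against TT naive cells the median was -0.10 in cTh1 and turned to 0.02 with the arrays centred. For nTh1 over TT naive 7 of 8 were below 0, with a median of -0.16, and 5 of 8 were below 0 with the loess trend removed. In that comparison 0 of 8 reached 2-fold, against 1.41% of all genes higher and 1.09% lower. Calr, which encodes calreticulin of the peptide loading complex, was at 12.79 on the naive-labelled array, 12.70 in TT naive, 12.40 in cTh1 and 12.56 in nTh1 cells.

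Markers of other cells moved with these comparisons, and class I processing genes are made by those cells too. Of 11 measured B cell markers, 5, 4, 9 and 7 reached the table's median value on the naive-labelled array, in TT naive, cTh1 and nTh1 cells. Their summed level, the log2 of the sum of their linear values, was 10.01, 9.90, 12.62 and 10.64 in that order. The brightest markers weigh most in such a sum. The summed level of the CD8 chains Cd8a and Cd8b1 was 8.75, 9.54, 11.54 and 9.89. The summed level of 16 myeloid markers was 11.95, 11.26, 11.90 and 12.43, with 12, 8, 11 and 15 at or above the median. Their part in the values of Psmb9, Psmb8 and Tap1 in cTh1 cells, and of Nlrc5 in nTh1 cells, was not tested. In bulk RNA, more cells of a type and more RNA per cell cannot be told apart. Tissue, genotype and culture also differ together between cTh1 cells and both thymic populations, nTh1 and TT naive, and cannot be told apart.

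Genes with the most similar profile were named for Nlrc5 and Psmb9, as the root mean square difference over 4 arrays after each gene was centred on its own mean. Among 13238 genes, those nearest to Nlrc5 were Ppm1h (0.02), the Tec family kinase Txk (0.03) and the predicted gene Gm26583 (0.05). Within the group the nearest to it was Tap1, at 0.39 and rank 1808. Those nearest to Psmb9 were Mrpl14 (0.02), the adaptor gene Hcst (0.02) and 0610040B10Rik (0.03). Psmb8 was the nearest of the group to Psmb9, at 0.15 and rank 382. The nearest genes were picked from 13238 over only 4 arrays, so such closeness alone does not link them. How many genes lie this close to other profiles was not counted.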

How the data were processed

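Per the submitters' processing notes, the authors summarised the probe sets by RMA in Affymetrix Expression Console 1.3.1, and the deposited values are on a log2 scale. RMA brings the arrays to a common distribution, so a value is relative to the other genes of its array. Summary level, annotation version and genome build are not stated in the labels. The table held 41345 probe sets on 4 arrays, with 0 columns unmatched, and so few arrays limit the precision of all values.

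Only probe sets with exactly 1 gene symbol in the platform annotation (23521) were used, and the brightest stood for its gene. Genes were counted in a comparison if either array reached 6.61, the table's median. Each difference is the first array's log2 value less that of the second, and counts use 2-fold. With 1 array a group no test was run. The counting code was checked on simulated data. Genes outside the group came from pathway lists, by a rule that takes their main genes, those at 2-fold and the largest differences. The group and the lists were chosen with earlier results of these data known. Alternatives changed the level filter, the centring, a loess trend (span 0.3), the choice of probe sets and the fold threshold. Promoter windows (RefSeq, GRCm38.p6) were searched in Python 3.11.15 with pandas 2.3.3, and gene order came from a RefSeq table of that build.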

Additional observations from a re-analysis of the deposited data

Results flagged for a closer look

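The inducible catalytic subunits differed in opposite directions for nTh1 over TT naive and cTh1 over the naive-labelled array, which share no array. These differences were not tested, as each rests on 1 array per group. Psmb8 was at -0.27 for nTh1 over TT naive and at 0.31 for cTh1 over the naive-labelled array. Psmb9 was at -0.17 and 0.61 in the same comparisons. Psmb10 was at 0.012 and -0.18, and the first of these turned to -0.05 when the arrays were centred on their medians. The second comparison uses the array that went against its label. For cTh1 over TT naive, which shares the TT naive array with the first, Psmb8 was at 0.52, Psmb9 at 0.90 and Psmb10 at -0.01, close to 0. The values 0.31, -0.17, 0.012 and -0.18 lie within the probe set SD of their comparison.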

How the results depend on the processing

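Centring each array on its median took out 0.18 for nTh1 over cTh1, 0.13 for nTh1 over the naive-labelled array and -0.12 for cTh1 over TT naive. Psmb9 then passed 2-fold for cTh1 over TT naive, at 1.02, so that 1 gene was counted there instead of 0. At a 1.5-fold threshold 1 gene was counted for nTh1 over TT naive, 3 for cTh1 over the naive-labelled array, 1 for cTh1 over TT naive and 3 for nTh1 over cTh1. At 3-fold the counts for nTh1 over cTh1 and for nTh1 over the naive-labelled array were 0. Shares of all genes were counted at 2-fold only, so the counts at 1.5-fold and 3-fold have no background to be set against. With TT naive in place of the naive-labelled array, an alternative added after the data were examined, the count for nTh1 was 0, with Nlrc5 at 0.77 instead of 1.28. The group medians and subunit shifts moved by less than the probe set SD under every alternative run. Many of these alternatives could not have moved them. Centring cannot change a subunit shift, every gene of the group passed the stricter level filter, and only Tapbp had a further probe set. The shifts could move only with the loess trend removed or with TT naive as the baseline. Of 60 single differences, 8 changed sign under centring and 5 with the loess trend removed, and all of these were within 0.05 of 0 in the values reported. With the mean of probe sets Tapbp for cTh1 over TT naive turned from 0.11 to -0.12. With TT naive in place of the naive-labelled array 5 of 20 changed sign. In cTh1 these were Nlrc5 from 0.51 to -0.01, Tap2 from -0.06 to 0.14 and Tapbp from -0.0057 to 0.11, and in nTh1 H2-M3 from -0.10 to 0.19 and Psmb10 from -0.15 to 0.012. No paired analysis was possible because each group had 1 array.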

Other observations

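Of 6 measured molecules related to class I heavy chains, Mr1, Fcgrt and Ulbp1 were highest in cTh1 cells. Mr1, which presents vitamin B metabolites to MAIT cells, was at 9.76 on the naive-labelled array, 9.65 in TT naive, 10.77 in cTh1 and 9.67 in nTh1 cells. Fcgrt, the neonatal Fc receptor, was at 6.64, 7.18, 7.95 and 7.01 in that order, and Ulbp1, a ligand of the receptor NKG2D, at 8.57, 7.92, 9.54 and 7.86. Of 4 such genes that passed the level filter, Mr1 and Fcgrt exceeded the naive-labelled array by 2-fold or more in cTh1 cells, where 5.13% of all genes did. Mr1 and Ulbp1 exceeded TT naive cells by as much, against 7.24% of genes. For nTh1 over TT naive 0 of 4 differed by 2-fold, against 1.41% of genes higher and 1.09% lower. Cd1d1, which presents lipids to NKT cells, was highest in TT naive at 8.62 and lowest in cTh1 at 8.04. Cd1d2 and Hfe stayed below the median of all values on all 4 arrays, at 5.42 to 5.72 and 6.02 to 6.28.

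Cytosolic and vesicular peptidases, which shorten or destroy proteasome products, had 0 of 6 measured genes at 2-fold for cTh1 over either baseline and for nTh1 over TT naive. Of all genes, 5.13% were higher and 3.35% lower in cTh1 over the naive-labelled array, and 7.24% and 3.02% over TT naive. For nTh1 over TT naive these shares were 1.41% and 1.09%. With 6 genes, a count of 0 lies near these shares. Tpp2 varied by 0.10 over the 4 arrays. Npepps was the one with the largest difference for cTh1 over the naive-labelled array, at 0.90, and was at 0.49 over TT naive cells.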
